A study of Mus musculus with 6 samples.

Results

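The genes described here are the nuclear genes of oxidative phosphorylation, chosen by name from the library files: the Nduf genes of complex I, Sdha to Sdhd of complex II, the Uqcr genes of complex III, the Cox4 to Cox8 genes of complex IV and the Atp5 genes of ATP synthase (complex V). The names gave 84 of 39171 gene identifiers, all of them protein coding, with 37 in complex I, 4 in complex II, 8 in complex III, 18 in complex IV and 17 in complex V, and 2 pseudogene names were left out. The values came from RNA sequencing of CD4+ T cells isolated magnetically from the spleens of premenopausal C57BL/6 mice. In the AngII group, angiotensin II, a blood-pressure-raising peptide hormone, was given at 800 ng/kg/min through an osmotic minipump for 2 weeks from 10 weeks of age. Control mice of the same strain and age were labelled as untreated, with no mention of a pump or vehicle, so the infusion and the pump cannot be told apart. Each group held 3 mice with 1 library per mouse.

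Oxidative phosphorylation couples electron transport to ATP synthesis in the inner mitochondrial membrane. Complex I takes electrons from NADH and complex II takes them from succinate, complex III passes them by way of cytochrome c to complex IV, which reduces oxygen, and the proton gradient built on the way drives the rotary ATP synthase. Most subunits are encoded in the nucleus, a small set is encoded in the mitochondrial genome, and T cells raise their respiratory capacity when they are activated and when they become long-lived memory cells.

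The transcripts of these complexes were abundant, and none passed the test for a difference between AngII and Control. Levels are given as FPKM (fragments scaled to the length of the transcript and to the size of the library), and differences as log2 fold changes of FPKM + 1, AngII minus Control. Of the 84 genes, 78 reached the mean of 1 FPKM needed for testing, and Cox4i2, Cox7a1, Cox7b2, Cox8b, Cox8c and Ndufa4l2 did not. By limma with Benjamini-Hochberg adjustment over 11842 genes, 0 of the 78 had an adjusted p below 0.05 (smallest adjusted p = 0.9999), where 0.0338% of all tested genes did. At an unadjusted p below 0.05 there was 1 gene, Ndufa13, where 1.76% of all tested genes stood. In the authors' deposited table, 83 of the genes were found by name, 79 had been tested and 0 were marked significant, with a smallest q of 0.999918.

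Small differences nevertheless leaned to one side. The fold change was below 0 for 73 of the 78 genes and above 0 for 5, while 52% of all tested genes lay below 0. The median log2 fold change of the 78 genes was -0.105, and that of all tested genes was -0.004. Values ran from -0.334 for Atp5l to 0.599 for Cox6b2, and 75 of 78 lay within 0.25 of 0. The 95% interval of a single gene extended a median of 0.215 to either side, and for 64 genes it reached below -0.25, so differences of that size were not detectable gene by gene. All 3 AngII libraries lay below all 3 Control libraries for 10 genes (3.48% of all tested genes), namely Ndufa13, Ndufb2, Ndufb11, Uqcr10, Cox6a1, Cox7c, Atp5b, Atp5e, Atp5l and Atp5o. All AngII libraries lay above all Control libraries for 0 genes (2.36% of all tested genes).

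**Figure D1:**
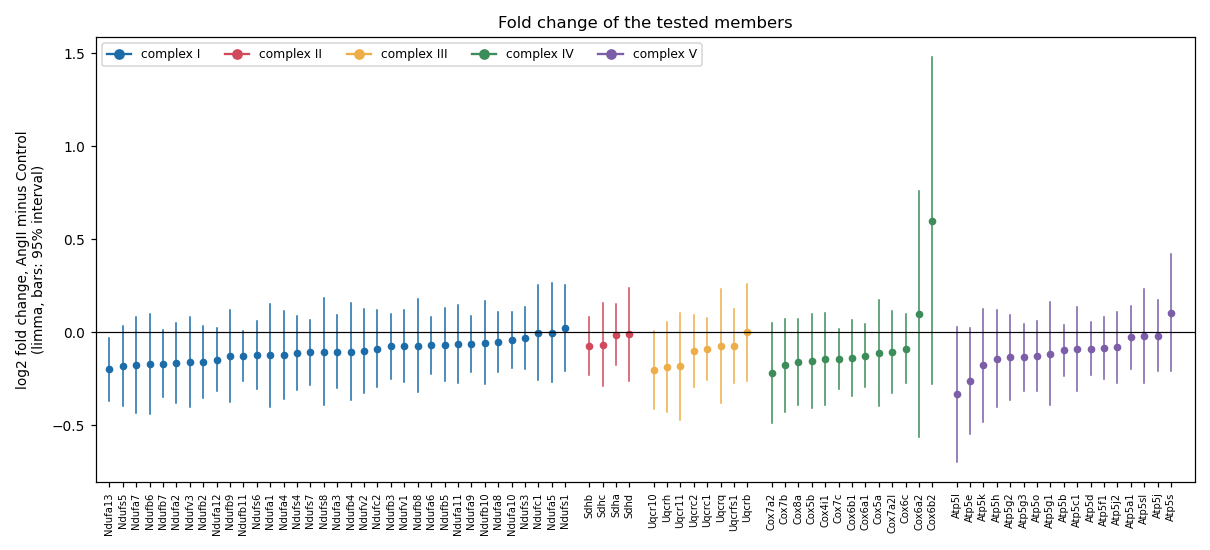
Log2 fold change (y axis, AngII minus Control on the log2(FPKM + 1) scale) of 77 of the 78 tested genes (x axis), grouped by complex, with points for the limma estimate and bars for its 95% interval. Points of 73 genes lie below 0, from -0.334 for Atp5l, and only the interval of Ndufa13 ends below 0.

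The size of this lean differed between libraries. AngII replicate 1 was the lowest of the 6 libraries for 63 of the 78 genes, against 20.9% of all tested genes, and Control replicate 2 was the highest for 55, against 18.4% of all tested genes. AngII replicate 2 lay below every Control library for 14 of the genes and was the highest library for 14. AngII replicate 3 lay below every Control library for 51 genes, and AngII replicate 1 did so for 69. Over all tested genes these shares were 28.04% for AngII replicate 1, 34.6% for AngII replicate 2 and 15.87% for AngII replicate 3. The summed FPKM of the 84 genes was 9771, 10590 and 9741 in the Control libraries, given here and below in the order of replicates 1 to 3, and 8482, 9903 and 9271 in the AngII libraries, so AngII replicate 2 lay inside the Control range. Without AngII replicate 1 the median log2 fold change of the 78 genes was -0.044 with 63 below 0, and without Control replicate 2 it was -0.063 with 65 below 0. Without AngII replicate 2 it was -0.154, and 23 genes then had an unadjusted p below 0.05, as had 7.75% of all tested genes, with 0 past the threshold (smallest adjusted p = 0.632 by limma). With equal-sum scaling of the libraries the median was -0.037 and 59 genes lay below 0, while 27.6% of all tested genes did and their median was 0.0578. The sums behind that scaling include the mitochondrial genes mt-Co2 and mt-Nd4. Their Control means were 16550 and 5761 FPKM, and both were listed at 0 in every AngII library. Their part in the scaling was not tested. With library weights, which count libraries that stand apart for less, the median of the 78 genes was -0.187 and 76 lay below 0, with 0 past the threshold.

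**Figure D2:**
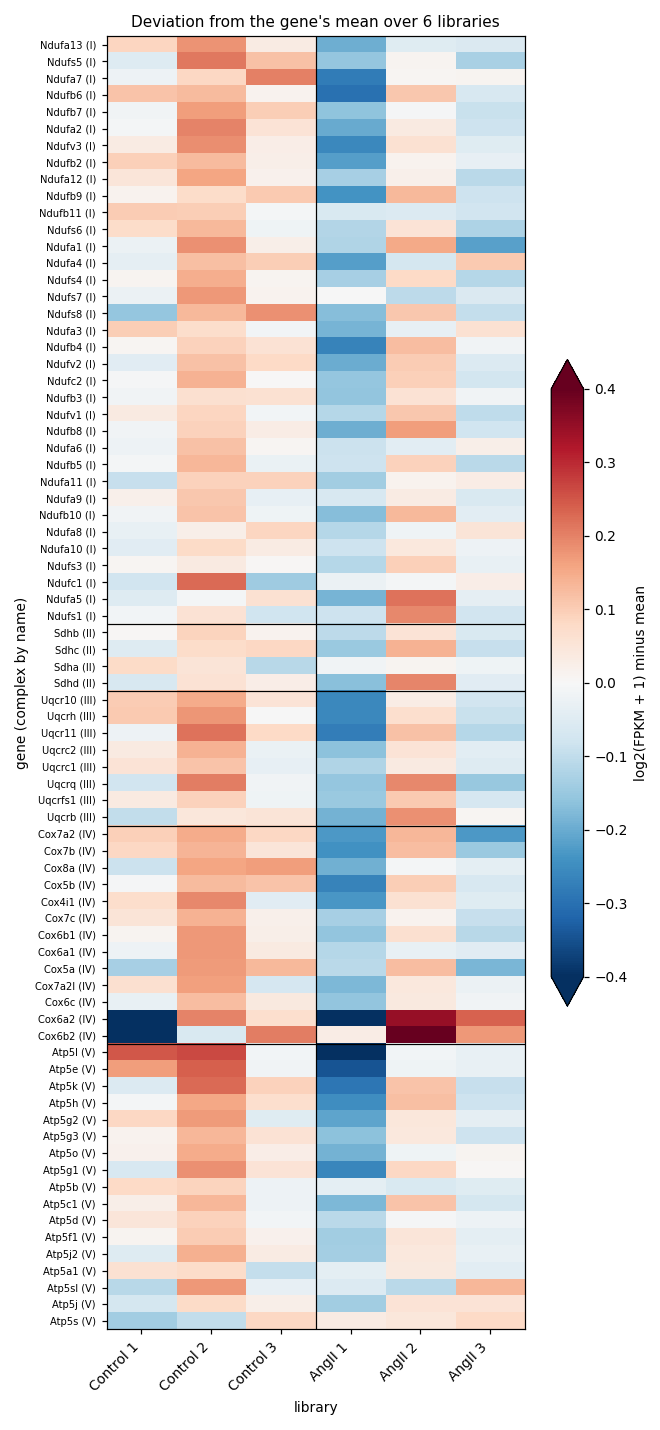
Deviation of log2(FPKM + 1) in each of the 6 libraries (x axis) from the mean of that gene over the libraries (colour), for 77 of the 78 tested genes (y axis) ordered by complex and by fold change within it. Over the 78 genes AngII replicate 1 is lowest for 63 and Control replicate 2 highest for 55, and the colour scale ends at 0.4, which Cox6a2, Cox6b2 and Atp5l exceed in single libraries.

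The genes also varied together within the libraries. Over the 6 libraries, the deviation of a gene from its own mean correlated with the median deviation of all 78 genes at a median Pearson r of 0.88, and 54 genes had r above 0.8. These correlations are a description over 6 libraries, in which the genes share library, depth and normalisation. The median profile includes the gene itself and any difference between the groups, both of which raise r. No share over all tested genes is given here for reference. The median deviations of the 78 genes on the log2 scale were -0.006, 0.131 and 0.024 for Control and -0.159, 0.056 and -0.048 for AngII. Cytosolic ribosomal protein genes, which are also short and abundant, had median deviations of 0.096, 0.154 and -0.066 in Control and -0.17, -0.022 and 0.015 in AngII. Both groups of genes were thus highest in Control replicate 2 and lowest in AngII replicate 1, and they ran apart in the other libraries. The median log2 fold change of the 83 tested cytosolic ribosomal protein genes was -0.117, with 83 below 0, and that of 77 mitochondrial ribosomal protein genes was -0.078, with 67 of the latter below 0.

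**Figure D3:**
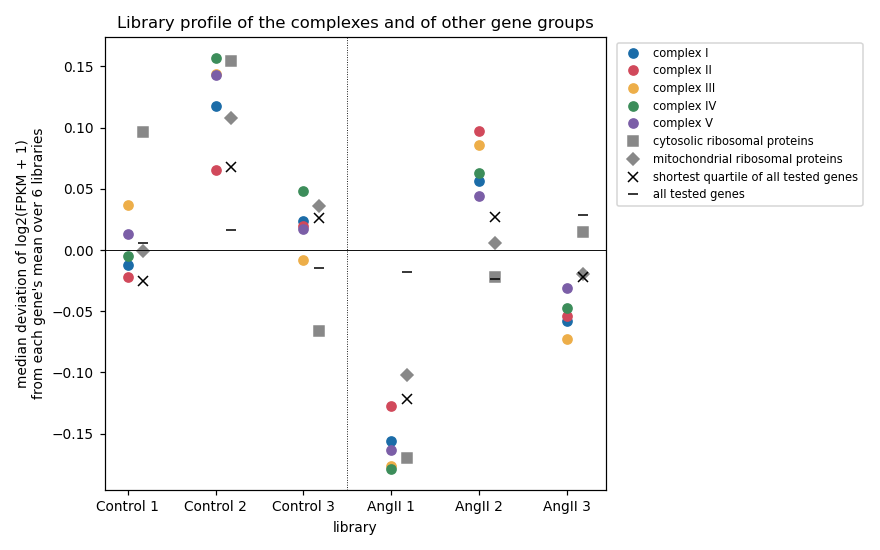
Median deviation of log2(FPKM + 1) from each gene's mean over the 6 libraries (y axis), by library (x axis), for the genes of complexes I to V (circles), ribosomal protein genes, the shortest quartile of all tested genes and all tested genes. All 5 complexes have their lowest point in AngII replicate 1, between -0.127 for complex II and -0.179 for complex IV.

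Transcript length and level moved with the fold change over all genes. The longest annotated coding transcripts of the 78 genes had a median of 892 bases, against 2827 bases for all tested genes, and 64 of the 78 fell in the shortest quartile, which ended at 1662 bases. That quartile had a median log2 fold change of -0.057 over all its genes and -0.111 over the 64 genes described here. The next 3 quartiles of all tested genes had medians of -0.014, 0.010 and 0.022. By level, the lowest to the highest quartile had medians of 0.024, 0.007, -0.004 and -0.032, and the 78 genes stood at a median percentile of 92.3. The 970 genes that were both in the shortest and in the highest quartile had a median of -0.083, with 80.21% below 0, and 59 of the 78 genes were among them, at a median of -0.124. Across the 78 genes, which are not independent replicates, Spearman's rho of fold change was 0.47 with length and -0.44 with mean FPKM. The part that length, level or the make of a library had in the lean was not tested.

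**Figure D4:**
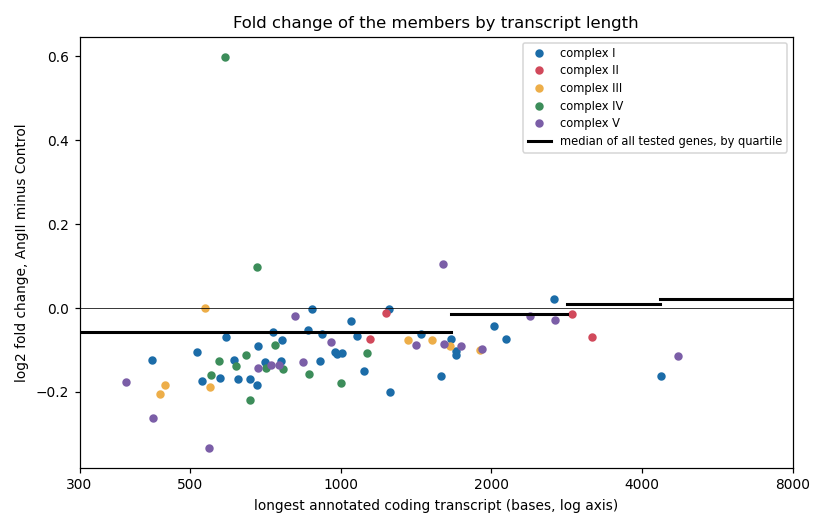
Log2 fold change (y axis, AngII minus Control) of 77 of the 78 tested genes against the length of their longest annotated coding transcript (x axis, log scale, in bases), coloured by complex, with black lines for the median of all tested genes in each quartile of length. The median of all tested genes goes from -0.057 in the shortest quartile to 0.022 in the longest, and most of the genes shown lie below the line of the shortest quartile.

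Nuclear respiratory genes are known to be driven from promoters that bind NRF1, the ETS factor GABP, YY1 and Sp1. RefSeq (GRCm38.p6) promoters of 300 bases, from 250 before to 50 after the start, were found for 69 of the 84 genes, 75 promoters in all. The NRF1 motif GCGCANGCGC, read on both strands as were all motifs, was in 24.0% of these promoters, in 10.5% of 11007 promoters of tested genes and in 4.6% of 32851 promoters of all genes. AANATGGC, the YY1 motif, stood in 25.3% of the promoters against 9.0% and 6.05%. CCGGAAG, the ETS motif, stood in 21.3% against 19.0% and 8.86%. GGGCGG, the Sp1 motif, stood in 38.7% against 62.4% and 35.7%, and TATAAA in 10.7% against 7.0% and 13.6%. The median log2 fold change was -0.104 for 17 tested genes with an NRF1 match and -0.109 for 49 without, -0.151 for 16 with an ETS match and -0.103 for 50 without, and -0.092 for 18 with a YY1 match and -0.124 for 48 without. It was -0.102 for 27 with an Sp1 match and -0.123 for 39 without, and -0.169 for 5 with a TATAAA match and -0.106 for 61 without. The promoters below are those of Atp5l, which had the most negative fold change, and of the gene of smallest p with an NRF1 (Ndufs5), an ETS (Ndufb7) and a YY1 match (Ndufb11). Each runs 5′ to 3′ along the strand of the gene, with the matches to the 5 motifs in capitals, none of which overlap. Atp5l lies at chr9:44920693-44920992 (minus strand), with 2 ETS matches and 1 TATAAA match. Ndufs5 lies at chr4:123718137-123718436 (minus strand), with 1 NRF1 match. Ndufb7 lies at chr8:83566508-83566807 (plus strand), with 1 ETS and 1 TATAAA match. Ndufb11 lies at chrX:20617570-20617869 (minus strand), with 1 YY1 match.
Atp5l: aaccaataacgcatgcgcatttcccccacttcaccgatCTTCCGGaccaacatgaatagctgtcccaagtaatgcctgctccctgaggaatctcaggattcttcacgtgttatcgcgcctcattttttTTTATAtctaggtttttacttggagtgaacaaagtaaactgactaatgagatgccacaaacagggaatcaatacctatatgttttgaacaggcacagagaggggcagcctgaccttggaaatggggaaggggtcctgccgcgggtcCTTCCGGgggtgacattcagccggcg
Ndufs5: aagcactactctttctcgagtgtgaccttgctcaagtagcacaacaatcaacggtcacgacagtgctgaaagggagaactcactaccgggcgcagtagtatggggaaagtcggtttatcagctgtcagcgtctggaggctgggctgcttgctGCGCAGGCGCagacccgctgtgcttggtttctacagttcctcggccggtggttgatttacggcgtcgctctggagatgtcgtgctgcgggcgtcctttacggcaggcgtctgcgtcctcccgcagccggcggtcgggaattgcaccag
Ndufb7: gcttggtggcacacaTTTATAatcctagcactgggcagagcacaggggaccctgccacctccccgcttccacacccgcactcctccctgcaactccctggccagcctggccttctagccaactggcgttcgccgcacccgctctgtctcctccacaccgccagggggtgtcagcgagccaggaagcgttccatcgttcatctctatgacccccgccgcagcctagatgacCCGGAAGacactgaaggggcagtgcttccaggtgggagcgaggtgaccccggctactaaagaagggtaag
Ndufb11: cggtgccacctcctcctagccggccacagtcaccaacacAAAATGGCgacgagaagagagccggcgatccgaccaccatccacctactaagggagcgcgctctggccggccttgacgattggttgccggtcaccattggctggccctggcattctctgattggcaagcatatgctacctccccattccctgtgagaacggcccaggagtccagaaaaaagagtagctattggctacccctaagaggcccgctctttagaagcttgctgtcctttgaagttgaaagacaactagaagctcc
A match is a run of letters and was not tested for binding.

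Complex I, the NADH dehydrogenase, had 36 tested genes with a median log2 fold change of -0.105, of which 34 were below 0 and 0 passed the threshold. Without AngII replicate 1 this median was -0.042, without Control replicate 2 it was -0.065, and with equal-sum scaling of the libraries it was -0.037. Ndufa3, an accessory membrane subunit, was the most abundant of the genes named for this complex, at 261, 256 and 241 FPKM in Control and 214, 238 and 254 FPKM in AngII. Those values overlap between the groups. Ndufa4, named for complex I but now placed in complex IV, was at 190.5 to 212 FPKM in Control and 167.5 to 210.0 in AngII.

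Ndufa13, also known as GRIM-19, is an accessory subunit needed for the assembly of complex I, and it had the smallest p of all 78 genes. Its levels were 74.1, 79.0 and 71.3 FPKM in Control and 60.8, 67.4 and 66.9 FPKM in AngII. All AngII values lay below the lowest Control value. The log2 fold change was -0.200 (SE 0.069, unadjusted p = 0.02762, adjusted p = 0.9999 by limma). The gene (ENSMUSG00000036199) has 5 exons at chr8:69894180-69902558 of GRCm38.

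Accessory subunits of the membrane arm gave the other separated values. Ndufb11, on chromosome X, was at 106.9, 106.8 and 99.0 FPKM in Control and at 95.6, 95.9 and 94.5 in AngII, a log2 difference of -0.127 (SE 0.055, unadjusted p = 0.0589). Ndufb2 was at 38.9, 39.7 and 36.9 FPKM in Control and at 31.0, 36.7 and 35.5 in AngII, a log2 difference of -0.161 (SE 0.079) and of -0.091 without AngII replicate 1. Both sets were free of overlap, though the gap between the nearest Ndufb2 libraries, 36.9 and 36.7 FPKM, was narrow. Ndufb7, a subunit on the intermembrane space side, had 78.7, 89.4 and 85.2 FPKM in Control and 71.0, 79.2 and 74.7 in AngII (log2 difference -0.169, SE 0.073). Ndufa12, a subunit of the peripheral arm, had 52.4, 56.6 and 51.3 FPKM in Control and 46.1, 51.4 and 46.9 in AngII (log2 difference -0.149, SE 0.069). In each of these last 2 genes AngII replicate 2 overlapped the lowest Control library by a small margin.

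The 7 nuclear core subunits, which carry the flavin, the iron-sulfur clusters and the quinone site, had a median log2 fold change of -0.074, and the 29 other tested subunits had -0.112, with 29 below 0. No test was made of the difference between these sets, and the core genes were longer (median 1623 bases against 861). Ndufs1, the largest iron-sulfur subunit, was at 23.4, 24.6 and 22.2 FPKM in Control and 22.2, 27.1 and 22.3 in AngII. The groups overlapped, and the log2 difference of 0.021 (SE 0.094) turned below 0 with library weights. Ndufs1 lies opposite Eef1b2, a translation elongation factor gene at a mean of 819.7 FPKM against 23.6 for Ndufs1, and whether reads were counted by strand is not given in the sources used here.

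Among other core subunits, Ndufv1, which binds NADH, was at 33.9 to 36.3 FPKM in Control and 31.5 to 36.9 in AngII (log2 difference -0.074). Ndufv2, its iron-sulfur partner, ranged over 55.1 to 61.8 and 49.4 to 61.1 FPKM (-0.102), and Ndufs3 of the quinone module over 61.7 to 63.1 and 56.8 to 65.9 FPKM (-0.032, and 0.0358 with equal-sum scaling). Ndufs7 was at 56.7 to 65.1 FPKM in Control and 53.5 to 57.7 in AngII (-0.109), and Ndufs8 was at 32.7 to 41.5 and 32.3 to 39.3 FPKM (-0.106). Control and AngII overlapped in each of these. The smallest absolute difference in the complex was that of Ndufa5, an accessory subunit of the quinone module, at -0.002 (SE 0.110), and the sign of that value flipped under all 3 scalings of the libraries tried.

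Complex II, succinate dehydrogenase, also works in the TCA cycle and is encoded wholly in the nucleus. Its 4 genes had a median log2 fold change of -0.041, with 4 below 0, and with equal-sum scaling the median was 0.027 and Sdha and Sdhd were above 0. Quantile normalization gave a median of -0.0078, again with Sdha and Sdhd above 0, and library weights gave -0.1273. Leaving out AngII replicate 1, 2 or 3 gave medians of -0.0096, -0.1162 and -0.0242, and leaving out Control replicate 1 or 2 gave -0.0679 and -0.0185. Sdha, the flavoprotein, was at 98.8, 97.1 and 86.5 FPKM in Control and at 92.5, 94.3 and 92.5 in AngII (log2 difference -0.013). Sdhb, the iron-sulfur subunit, was at 69.3, 73.4 and 69.8 FPKM in Control and at 64.2, 71.8 and 66.1 in AngII (-0.073). Both are soluble subunits, and their groups overlapped. The membrane anchors gave -0.069 for Sdhc, at 73.8 to 81.0 FPKM in Control and 68.8 to 84.2 in AngII, and -0.012 for Sdhd, at 64.5 to 70.3 and 60.0 to 77.5 FPKM. In both anchors AngII replicate 1 was the lowest library and AngII replicate 2 the highest.

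Complex III, the cytochrome bc1 complex, had 8 tested genes, 8 of them below 0, with a median log2 fold change of -0.095. Without Control replicate 2 the median was -0.055 and without AngII replicate 1 it was -0.048, while without AngII replicate 2 it was -0.172. Equal-sum scaling gave -0.0266 and quantile normalization -0.0524. Uqcrh, the acidic hinge subunit beside cytochrome c1, was the most abundant, at 360.2, 378 and 334.5 FPKM in Control and 279.9, 351 and 314 in AngII (log2 difference -0.187, SE 0.099). Uqcr10, a small membrane subunit, was at 148.3, 153 and 143.3 FPKM in Control and 115.3, 140.9 and 130.7 in AngII. Its groups did not overlap, with AngII replicate 2 close below Control replicate 3. The log2 fold change of Uqcr10 was -0.204 (SE 0.085, unadjusted p = 0.0533, adjusted p = 0.9999 by limma), and -0.1266 without AngII replicate 1.

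Other members of the complex differed less. The core proteins Uqcrc1 and Uqcrc2, descendants of mitochondrial processing peptidases, had log2 differences of -0.090 and -0.100. Uqcrfs1, the Rieske iron-sulfur protein that hands electrons to cytochrome c1, was at 95.4 to 103.2 FPKM in Control and 87.1 to 104.0 in AngII (-0.075). The smallest absolute difference was that of Uqcrb, at -0.001 (SE 0.106), and it was above 0 under all 3 scalings. Its levels were 108.1, 119.5 and 120.1 FPKM in Control and 101.4, 131.4 and 116.3 in AngII, so the AngII libraries lay both below and above the Control range.

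Complex IV, cytochrome c oxidase, had 18 genes by name, of which 13 were tested, with 11 below 0 and a median log2 fold change of -0.137. That median was -0.085 without Control replicate 2, -0.086 without AngII replicate 1 and -0.069 with equal-sum scaling. Cox7a2l, a gene related to that of subunit VIIa, was the most abundant of all 84 genes, at 535.2, 573.5 and 489.0 FPKM in Control and 452.2, 526.8 and 504.3 in AngII (log2 difference -0.107, SE 0.091). The groups overlapped. Cox7a2, the general isoform of subunit VIIa, was 5.645 to 7.247 times lower in FPKM than Cox7a2l in the 6 libraries.

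The largest negative value in the complex was that of Cox7a2, at 87.5, 90.7 and 86.6 FPKM in Control and 69.6, 89.8 and 69.6 in AngII (log2 difference -0.218, SE 0.110, and -0.3384 without AngII replicate 2). AngII replicates 1 and 3 lay apart from the Control libraries, and AngII replicate 2 lay among them. Cox7c, a small membrane subunit, was at 220.9, 234.8 and 215.9 FPKM in Control and 194.0, 215.2 and 199.5 in AngII (-0.142, SE 0.066). Cox6a1, the general isoform of subunit VIa, was at 247.1, 282.7 and 257.2 FPKM in Control and 231.4, 245.7 and 243.2 in AngII (-0.126, SE 0.070, and -0.0707 without Control replicate 2). Neither Cox7c nor Cox6a1 overlapped between the groups, and in each the nearest Control and AngII libraries were less than 2 FPKM apart.

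The general isoforms of complex IV far exceeded those known from heart, muscle, lung or testis. Cox4i1 was 302.1 to 1732 times higher in FPKM than Cox4i2, the lung and hypoxia isoform, over the 6 libraries. Cox6a1 was 101.5 to 243.2 times higher than Cox6a2, the heart and muscle isoform, and Cox6b1 was 49.87 to 297 times higher than Cox6b2, the testis isoform. Cox4i2 was listed at 0.2244, 0.3242 and 1.187 FPKM in Control and 0.6183, 1.143 and 0.6174 in AngII. Cox7a1, the heart and muscle isoform of subunit VIIa, was above 0 in 5 libraries with a highest value of 0.897 FPKM, and Cox7b2, a testis isoform, was above 0 only in Control replicate 1, at 0.1909. Cox8b and Cox8c, the muscle and testis isoforms of subunit VIII, were listed at 0 in all 6 libraries, where Cox8a was at 322.7 to 384.9 FPKM in Control and 299.4 to 340.6 in AngII. Ndufa4 was 824.6 to 5205 times higher than Ndufa4l2, its hypoxia-induced paralog, which lay between 0.04074 and 0.2255 FPKM.

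The smallest absolute difference in the complex was that of Cox6c, a small subunit, at 210.8, 234.3 and 221.1 FPKM in Control and 192.6, 221.2 and 212.9 in AngII (-0.089, SE 0.076), where the groups overlapped. Leaving out Control replicate 2 gave -0.0498, and leaving out AngII replicate 1 gave -0.0317.

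The only values above 0 in this complex came from low isoforms. Cox6b2 was at 0.8192, 2.599 and 3.324 FPKM in Control and 2.831, 5.063 and 3.234 in AngII (log2 difference 0.599, SE 0.359, unadjusted p = 0.1465). Control replicate 1 was low and AngII replicate 2 high, and the others overlapped. The difference was 0.2265 without Control replicate 1, 0.3397 with library weights and 0.2726 with a pseudocount of 5. Cox6a2 was at 1.02, 2.08 and 1.81 FPKM in Control and 0.983, 2.42 and 2.16 in AngII (0.098, SE 0.270), with its sign below 0 under library weights. Cox6a2 had the fewest fragments of the tested genes, about 38.9 per library, and it lies opposite Itgad, an integrin gene of macrophages, at 35.84 FPKM.

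**Figure D5:**
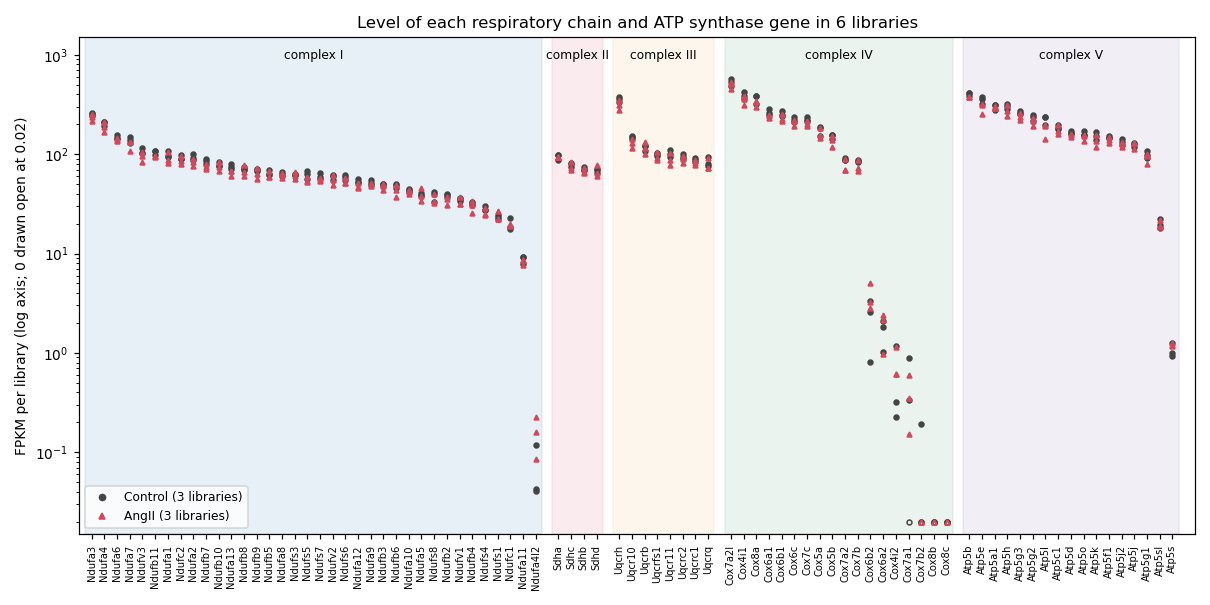
FPKM in each library (y axis, log scale, with values of 0 drawn at 0.02) of 83 of the 84 genes (x axis), grouped by complex and ordered by level, with circles for the 3 Control and triangles for the 3 AngII libraries. Cox7a2l stands highest at 452.2 to 573.5 FPKM, and the isoforms Cox6b2 to Cox8c and Ndufa4l2 lie far below the rest of their complexes.

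ATP synthase had 17 tested genes with a median log2 fold change of -0.098, and 16 were below 0. This median was -0.064 without Control replicate 2, -0.054 when AngII replicate 1 was left out and -0.152 when AngII replicate 2 was, and it was -0.0295 with equal-sum scaling and -0.0618 with quantile normalization. Atp5b, the catalytic beta subunit, was the most abundant, at 412.0, 414.8 and 384.4 FPKM in Control and at 379.5 and 377.3 in AngII replicates 1 and 3, with AngII replicate 2 lowest of all. The AngII libraries were closer to each other (376.9 ± 2.77 FPKM, SD, n = 3) than the Control libraries (403.7 ± 16.8), and the groups did not overlap. Its log2 fold change was -0.098 (SE 0.056, unadjusted p = 0.1321).

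Among the other F1 subunits, Atp5e, the small epsilon subunit of the central stalk, had the largest difference. It was at 360.6, 378.7 and 317.4 FPKM in Control and 252.3, 316.7 and 314.5 in AngII (log2 difference -0.261, SE 0.117, unadjusted p = 0.06698). AngII replicate 1 stood far below, while the other AngII libraries were within 3 FPKM of Control replicate 3, and without it the difference was -0.1541. Atp5a1, the alpha subunit, was at 279.5 to 314.4 FPKM in Control and 289.8 to 306.9 in AngII (-0.028), all AngII values inside the Control range. The sign of that difference turned with quantile normalization (0.0071) and with equal-sum scaling (0.0403), and leaving out 1 library took it up to 0.0022. Atp5c1, the rotating gamma subunit, and Atp5d, the delta subunit, had differences of -0.090 and -0.088.

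The c subunits, which form the proton-driven rotor ring, are encoded by 3 genes whose mature proteins are the same. Atp5g3 was at 222.2 to 272.7 FPKM over the 6 libraries, Atp5g2 at 191.8 to 250.1 and Atp5g1 at 79.2 to 108.1. Their log2 differences were -0.135, -0.136 and -0.115. Of their summed FPKM, Atp5g3 made up 43.0 to 45.2%, Atp5g2 37.5 to 40.8% and Atp5g1 15.8 to 17.4% in single libraries, and the ranges of Control and AngII overlapped for each gene. The share of each gene varied by less than 4 percentage points over the libraries.

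In the peripheral stalk, which holds the catalytic head still, Atp5o (OSCP) was at 156.5, 171.4 and 157.4 FPKM in Control and 135.5, 152.8 and 155.9 in AngII (log2 difference -0.128, SE 0.077, and -0.0657 without AngII replicate 1). Its groups were separated by under 1 FPKM. Atp5h and Atp5f1, the d and b subunits, had differences of -0.142 and -0.085, and Atp5j, coupling factor F6, had -0.018, which was above 0 with quantile and with equal-sum scaling. Atp5j overlaps Gabpa, a gene on the other strand at 24.97 FPKM, which encodes the GABP factor itself.

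The small membrane subunits at the dimer interface included the most negative value of the whole set. Atp5l, subunit g, was at 234.7, 237.1 and 196.0 FPKM in Control (222.6 ± 23.1, SD, n = 3) and at 143.0, 195.9 and 193.5 in AngII (177.5 ± 29.9). The nearest libraries, Control replicate 3 and AngII replicate 2, were 196.0 and 195.9 FPKM, so the groups were parted by 0.1 FPKM and AngII replicate 1 lay far below the rest. The log2 fold change was -0.334 (SE 0.148, unadjusted p = 0.06431, adjusted p = 0.9999 by limma) and -0.1868 without AngII replicate 1, and the authors' deposited table gave Atp5l a p of 0.0221, the only one below 0.05 among these genes. Atp5l (ENSMUSG00000038717) has 3 exons at chr9:44912557-44920742 on the minus strand. Atp5k, subunit e, had a difference of -0.177 and Atp5j2, subunit f, -0.082.

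The last 2 names in this family are not those of structural subunits. Atp5s, called factor B, was at 0.934, 0.990 and 1.26 FPKM in Control and 1.18, 1.20 and 1.25 in AngII (log2 difference 0.104, SE 0.129), a level near the minimum for testing. Atp5sl, named Dmac2 in the GENCODE annotation and needed for building complex I, was at 18.3 to 22.4 FPKM in Control and 18.3 to 21.8 in AngII (-0.019, and 0.0458 with equal-sum scaling).

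Genes that build, feed or control these complexes were described from lists of genes of known function. Over 106 tested genes of the pooled lists, 70 were below 0 and 36 above, where 52% of all tested genes lay below 0. The median log2 fold change was -0.031. By limma 0 passed the threshold, and 3 had an unadjusted p below 0.05, where 1.76% of all tested genes did. Assembly factors had medians of -0.055 for complex I (10 of 16 below 0), -0.127 for complex II (3 of 4), -0.077 for complex III (6 of 6), -0.036 for complex IV (16 of 22) and 0.024 for ATP synthase with its inhibitor (2 of 5). Ndufaf3, an assembly factor of complex I, was at 14.89, 13.49 and 12.52 FPKM in Control and 10.4, 11.5 and 11.1 in AngII, without overlap (log2 difference -0.284, SE 0.081, unadjusted p = 0.01293, adjusted p = 0.9999 by limma). Uqcc2, needed for making cytochrome b, had -0.225 (unadjusted p = 0.02011), and Coa3, an early factor of complex IV assembly, had -0.181 (unadjusted p = 0.035). In both of these, too, all AngII libraries lay below all Control libraries. Over the 106 pooled genes this held for 10 and the reverse for 1, where the shares of all tested genes were 3.48% and 2.36%.

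Regulators of nuclear respiratory genes had a median of -0.001, with 7 of 14 below 0, and Esrra and Gabpa had 0.082 and 0.071. Coenzyme Q synthesis genes had -0.017 (7 of 13 below 0) and TCA cycle genes -0.013 (12 of 17). The ATP and phosphate carriers had -0.061 (3 of 3), with Slc25a5, the main ADP/ATP exchanger of dividing cells, averaging 417.0 ± 13.1 FPKM over the Control libraries and 393.5 ± 35.8 over the AngII libraries (SD, n = 3). Of subunits and carriers whose names fell outside the rule, Cycs (cytochrome c) had -0.173, Cyc1 (cytochrome c1) -0.066 and Ndufab1, the acyl carrier protein of complex I, 0.111. Partner subunits from the mitochondrial genome gave 8 tested genes with 6 above 0, while mt-Co2 and mt-Nd4, both past the threshold, were listed at 0 in all 3 AngII libraries, which can be a failed estimate. By median deviation the 8 tested mitochondrially encoded genes were highest in AngII replicate 2, at 0.266. This median did not share the profile of the nuclear genes. The summed FPKM of all 13 listed was 54480, 50540 and 48720 in Control and 30270, 38930 and 29680 in AngII. By that sum every AngII library lay below the Control libraries. The Control sums include mt-Co2, at 17630, 16620 and 15410 FPKM, and mt-Nd4, at 6248, 5454 and 5582 FPKM. Both add 0 to the AngII sums, so the lower sums cannot be read as a fall of the mitochondrially encoded genes as a set. The listed genes that were not tested were under the mean of 1 FPKM, and whether those low values were failed estimates was not tested.

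Summed FPKM of 8 helper T cell markers was 3189 to 3767 in Control and 3238 to 3547 in AngII, so the labelled cell type was present in every library. Other cells of the spleen left transcripts in all libraries, at 657.1 to 1158 and 585.6 to 947.9 FPKM for 8 B cell markers, 1231 to 2077 and 1533 to 2997 for 10 macrophage markers, and 9.382 to 48.46 and 28.03 to 90.08 for 9 neutrophil markers. Platelet markers (8) summed to 105.6 to 279.5 and 177.1 to 243.3 FPKM, CD8 T and NK cell markers (9) to 176.1 to 254.8 and 165.1 to 212.3, plasma cell markers (6) to 144.3 to 248.9 and 118.4 to 229.1, and stromal and endothelial markers (7) to 50.48 to 54.34 and 52.83 to 56.06. The 9 erythroid markers summed to 352.5 to 584.9 in Control and 183.5 to 796.4 in AngII. AngII replicate 1, the lowest library of the respiratory genes, had the lowest sum for erythroid, B cell and plasma cell markers. It was not the lowest for the other lists. Median log2 fold changes were 1.348 for neutrophil (7 of 7 tested above 0), 0.522 for platelet (8 of 8) and 0.148 for macrophage markers (9 of 10). They were -0.149 for B cell (8 of 8 below 0), -0.224 for CD8 T and NK cell (8 of 8) and -0.072 for helper T cell markers (7 of 8). In these lists 0 genes passed the limma threshold. No marker was at 0 in all libraries. Their part in the values above was not tested, and fewer cells of a type and less RNA per cell cannot be told apart in bulk samples.

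Depth was similar between libraries. Estimated from genes of low values, it was 1.02 to 1.12 times that of Control replicate 1 in the other libraries. Summed FPKM, which is already scaled to library size and does not measure depth, was 613674 to 717286 per library. The lowest sum was that of AngII replicate 1, and 11438 to 11757 genes reached 1 FPKM. Total read counts were not given, and the steps between low values put 1 fragment on a transcript of 1 kb at 0.0296 to 0.0325 FPKM. On that scale the median gene of the 78 had about 2842 fragments per library, and 74 of them had over 400, where counting error is about 5%. For 11 of the 84 genes an overlapping gene reached at least 10% of the gene's own FPKM. Overlap was taken from whole gene spans, and shared exons were not examined. How far the counts of such pairs mix without strand is therefore not known.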

How the data were processed

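Per the submitters' processing notes, the tools were Trimmomatic 0.32, TopHat2 2.1.1 and Cuffdiff with the build GRCm38.p3; their annotation and use of strand were not given in the sources used here. FPKM were deposited by the authors, 1 file per library. The authors' deposited comparison, per the file headers in the layout of Cuffdiff, gives a p-value and a q-value per gene; its conditions are unnamed, so no direction was taken from it.

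Values were tested as log2(FPKM + 1) where the mean reached 1 FPKM, over all 6 libraries (3 Control, 3 AngII), with limma 3.58.1 in R 4.3.3 (eBayes with trend, two-sided), Benjamini-Hochberg adjustment over 11842 genes and a threshold of 0.05. FPKM are not counts, so no count test was run, and fold changes of low genes are understated. The labels name mice, not cultures or batches, and p-values measure the spread between these 3 and 3 libraries. Positions are from GENCODE M21 (GRCm38), where 83 of the 84 names were the same as in the files. The code was tested on simulated data with the same 3 and 3 libraries (11502 genes, 50 changed at each size). It called 0 genes changed by 0.25, 22 changed by 0.5, 47 changed by 1 and 50 changed by 2 on the log2 scale, with 3 false calls. Each gene was drawn independently, and changed genes were taken only from those of higher level. These counts therefore do not cover low genes or shifts that genes share within a library.

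The genes and lists were chosen with earlier results of these data known. Named are, per complex, the most abundant gene and those of largest and smallest absolute difference, the 8 of smallest p, those whose groups do not overlap, the core subunits of complex I, complex II, the c subunits, the isoforms of complex IV, and at most 3 of the smallest p from each list; other genes were added for their role after their values were seen. The values of 1 gene are not reported here by name, and it is counted in totals. Alternatives were other pseudocounts, filters, scalings, eBayes settings, library weights, leaving out each library, a replicate block and a threshold of 0.1. The rest was done in Python 3.11.15 (matplotlib 3.10.9, scipy 1.17.1, numpy 2.4.6, pandas 2.3.3).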

Additional observations from a re-analysis of the deposited data

How the results depend on the processing

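None of the genes passed the threshold in any alternative run, including an adjusted p below 0.1. At an adjusted p below 0.05 by limma, between 3 and 9 of all tested genes passed over the runs (4 as reported). All tested genes were not counted at 0.1. The count below 0 was 59 of 78 with equal-sum scaling, which moved the median of all tested genes to 0.0578, 66 with quantile normalization, 70 with median-of-ratios scaling and 76 with library weights. The sums used in equal-sum scaling include mt-Co2 and mt-Nd4, which were listed at 0 in every AngII library. With library weights, 53 of the 78 genes and 17.3% of all tested genes had an unadjusted p below 0.05, against 1 and 1.76% as reported (smallest adjusted p of the 78 = 0.275), and medians were -0.1788 for complex I, -0.1273 for II, -0.2249 for III, -0.2186 for IV and -0.1839 for V. The median of complex I was -0.0374 with equal-sum scaling and between -0.1527 and -0.0423 when 1 library was left out. Deviations from the group means, over all tested genes, correlated at r = -0.08, -0.023 and -0.035 between libraries of the same replicate number. Between different numbers r was -0.029 to 0.06. With 3 libraries per group these values cannot show whether libraries of the same number were handled together. With the replicate block the median of all 78 genes was -0.105, with 6 at an unadjusted p below 0.05 (1.82% of all tested genes).

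Signs of values near 0 turned in several alternatives, for 3 of the 78 genes with median-of-ratios scaling, 7 with quantile normalization, 14 with equal-sum scaling, 3 with library weights and 2 to 10 when 1 library was left out, and the cause was not tested. The values that follow are of genes tracked by the naming rule, not of all that turned. With median-of-ratios scaling Uqcrb was at 0.0065 and Ndufa5 at 0.0050. With quantile normalization Sdhd was at 0.0199, Uqcrb at 0.0259, Sdha at 0.0256, Atp5j at 0.0088 and Ndufa5 at 0.0235. With equal-sum scaling Sdhd was at 0.0558, Ndufs3 at 0.0358, Uqcrb at 0.0675, Sdha at 0.0554, Atp5j at 0.0502 and Ndufa5 at 0.0650. With library weights Ndufs1 was at -0.0947 and Cox6a2 at -0.1172. Leaving out 1 library gave ranges of -0.0576 to 0.0469 for Atp5j, -0.0838 to 0.3414 for Cox6a2, -0.1112 to 0.0902 for Ndufa5, -0.0704 to 0.0678 for Ndufs1, -0.0879 to 0.0177 for Ndufs3, -0.0716 to 0.0230 for Sdha, -0.1130 to 0.0688 for Sdhd and -0.0916 to 0.0939 for Uqcrb.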
